A study of Homo sapiens with 4 samples.

Results

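The epidermal growth factor (EGF) receptors, their ligands and a feedback inhibitor of the receptors were examined in LNCaP and PC3 cells exposed to atorvastatin (ATO). The set held 8 genes of the 27274 gene names on the array, namely the receptors EGFR, ERBB2 and ERBB3, the ligands AREG, EREG, HBEGF and TGFA, and the inhibitor ERRFI1. Every gene probe that the array design names for one of them was taken, which gave 15 of 34127 probes and 33 spots on each array. Both are established lines from human prostate cancers, of which LNCaP responds to androgen and PC3 grows without it. ATO is a statin, which inhibits HMG-CoA reductase in the synthesis of cholesterol. Total RNA was measured on 1-colour Agilent arrays to compare the effect of ATO in the lines. There were 4 groups of 1 array each. LNCaP control and PC3 control were called untreated by the labels, which name no vehicle, and LNCaP ATO and PC3 ATO had been exposed to 10 µM for 24 h. All were grown in RPMI medium with serum. Each group is 1 RNA sample, for which the labels do not say how many dishes it came from, so that an effect of group cannot be told apart from a difference between samples.

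ERBB receptors are tyrosine kinases of the cell surface that work in pairs. A bound ligand lets EGFR pair with itself or with another family member, ERBB2 has no known ligand of its own and serves as a partner, and ERBB3 has a weak kinase but binds PI3-kinase strongly once phosphorylated. The ligands are made as precursors anchored in the membrane and are released by proteases such as ADAM17, and ERRFI1 is induced by receptor signalling and binds the kinase domain to switch it off. In prostate cancer the ligands are known as autocrine growth factors, and ERBB2 and ERBB3 as partners of androgen signalling.

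The probes were 60 bases long with a GC content of 35.0% to 55.0%, and 5 of the 8 genes had more than 1. Below, probe 1 of a gene is the one with the highest mean log2 signal over the 4 arrays, and it stands for the gene in all counts. For TGFA this choice decided the call between the lines, since probe 2 had the higher signal in PC3 cells. The sequences below belong to the probe pairs of the ligands AREG and TGFA, whose ratios differed between the probes of a gene, and to the only probe of ERRFI1, the gene called after ATO. They are given 5′ to 3′ in the sense of the transcript, as the array files hold them, with the position of the whole probe on the hg18 build. For AREG probe 2 and TGFA probe 1 the whole probe is given, and for the others the 30 bases at the 3′ end.
AREG probe 1, chr4:75539382-75539441, plus strand: gacaatggaccctttttgttatgatggttt
AREG probe 2, chr4:75537157-75537216, plus strand: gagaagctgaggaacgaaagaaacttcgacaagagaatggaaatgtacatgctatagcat
TGFA probe 1, chr2:70536980-70537039, minus strand: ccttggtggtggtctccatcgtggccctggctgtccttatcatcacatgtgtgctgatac
TGFA probe 2, chr2:70528827-70528886, minus strand: cttctacatggaaagatagacagcagccaa
ERRFI1, chr1:7994795-7994854, minus strand: aagtaaaacacttctgacccatagctcagt
The AREG probes started 2225 bases apart on the genome and the TGFA probes 8153 bases apart. Both probes of each gene list the same RefSeq transcripts, except that AREG probe 1 also lists a predicted one. Exon and UTR boundaries of the hg18 build were not used here.

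The signal below is the processed intensity of the scanner software. All 4 arrays came from 1 slide and 1 scan, so position on the slide cannot be told apart from group. Between 48.5% and 52.9% of the gene spots of an array were well above background, and the 75th percentile of the signal, by which each array was scaled, lay between 654 and 771. The LNCaP ATO array had more spots in a bright local background than the others, 15.9% against 4.12% to 9.06%. The lines matched their labels: 6 of 6 LNCaP markers were higher in LNCaP control and 6 of 6 PC3 markers in PC3 control, the smallest difference being 4.12 on the log2 scale. Of the 15 probes, 6 were well above background on all 4 arrays and 4 on none, and no member spot was saturated or an outlier (0 of each). Differences have no replicate check. The ± values are the error of a log2 ratio from the scanner software's signal errors, which covers the spot and not the culture.

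**Figure D1:**
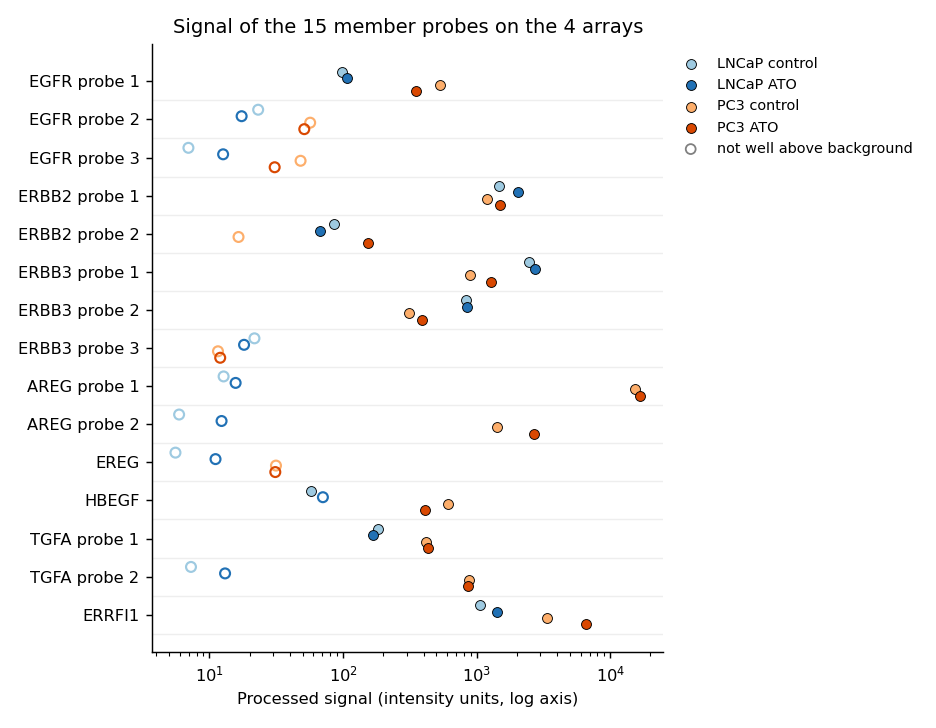
Processed signal (intensity units, log axis) of the 15 probes on the 4 arrays. Filled points are well above background and open points are not. The points of AREG in PC3 cells lie far to the right of those in LNCaP cells, whereas ERBB3 probes 1 and 2 lie higher in LNCaP cells.

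The untreated lines were compared first, at 2-fold. PC3 control had the higher signal of EGFR and of the ligands AREG and HBEGF, and of the inhibitor ERRFI1, and LNCaP control had the higher signal of ERBB3. Thus 5 of 7 genes with a value differed, 4 with PC3 above LNCaP and 1 with LNCaP above PC3. Of all 15237 genes with a value, 39.6% differed by as much, 20.7% with PC3 above LNCaP and 18.9% with LNCaP above PC3. The median log2 difference was 1.41 over the members and -0.04 over all genes. AREG had a value only because it was well above background in PC3 control. Where both arrays had to be well above background, 4 of 6 members differed, against 31.9% of all genes. EREG was not well above background on any array and had no value. The scaling set some of these calls, since the 50th percentile moved the median of all genes by -0.49 and the spike-in probes moved it by 0.42. EGFR, AREG, HBEGF and ERBB3 passed under all 4 other scalings, whereas ERRFI1 did not pass with the 50th percentile (0.92) TGFA passed with the spike-in probes (1.45) and with cyclic loess (1.09), and ERBB2 passed as lower in PC3 with the 50th percentile (-1.01).

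Among the receptors, EGFR, the receptor of all 4 ligands here, was read by 10 spots of probe 1 (chr7:55242335-55242394). Its mean signal in LNCaP cells was 97.4 without and 108 with ATO, and in PC3 cells it was 532 without and 353 with ATO. Both PC3 arrays lay above both LNCaP arrays, with no overlap of single spots, since the highest LNCaP spot read 143 and the lowest PC3 spot 281. EGFR was 4.63-fold higher in PC3 control than in LNCaP control (log2 2.21 ± 0.07), and the log2 ratio ran from 1.54 with normexp correction to 2.71 with the spike-in probes. EGFR probes 2 and 3 list other transcripts than probe 1. Their signals of 6.96 to 56.7 were not well above background on any array.

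ERBB2, the partner without a ligand, was also read by 10 spots of probe 1 (chr17:35138355-35138414). Its signal in LNCaP cells was 1460 without and 2030 with ATO, and in PC3 cells 1197 without and 1500 with ATO. By this probe it was thus higher with ATO in either line. Probe 2 was lower with ATO in LNCaP cells (66.7 against 86.2), and its PC3 values are given at the end. By probe 1 the untreated lines differed 1.44-fold, with LNCaP higher (log2 -0.52 ± 0.07), which was under the threshold. After scaling, PC3 spots exceeded LNCaP spots in 0 of 100 pairs of control spots. Such pairs, here and below, compare technical copies on 1 array of each group, which share the scaling of their array. With the spike-in probes as the scale the difference between the lines was -0.02.

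ERBB3, the partner that carries PI3-kinase, had 3 probes. Probe 1 (chr12:54782427-54782486) read 2454 (control) and 2743 (ATO) in LNCaP cells, and 886 (control) and 1271 (ATO) in PC3 cells. Probe 2 (chr12:54765484-54765543), which lists another transcript, read 829 (control) and 842 (ATO) in LNCaP cells, and 311 (control) and 387 (ATO) in PC3 cells. Both probes placed the LNCaP arrays above the PC3 arrays. Probe 2 shared a run of 16 bases with 1 probe of another gene, the longest such run of the member probes. The part of that run in its signals was not tested. ERBB3 was 3.26-fold higher in LNCaP control by probe 1 (log2 -1.71 ± 0.20) and 3.15-fold higher by probe 2 (log2 -1.65 ± 0.21). Probe 3 was not well above background on any array, with signals of 11.6 to 21.7, although it lists the same RefSeq transcript as probe 1.

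**Figure D2:**
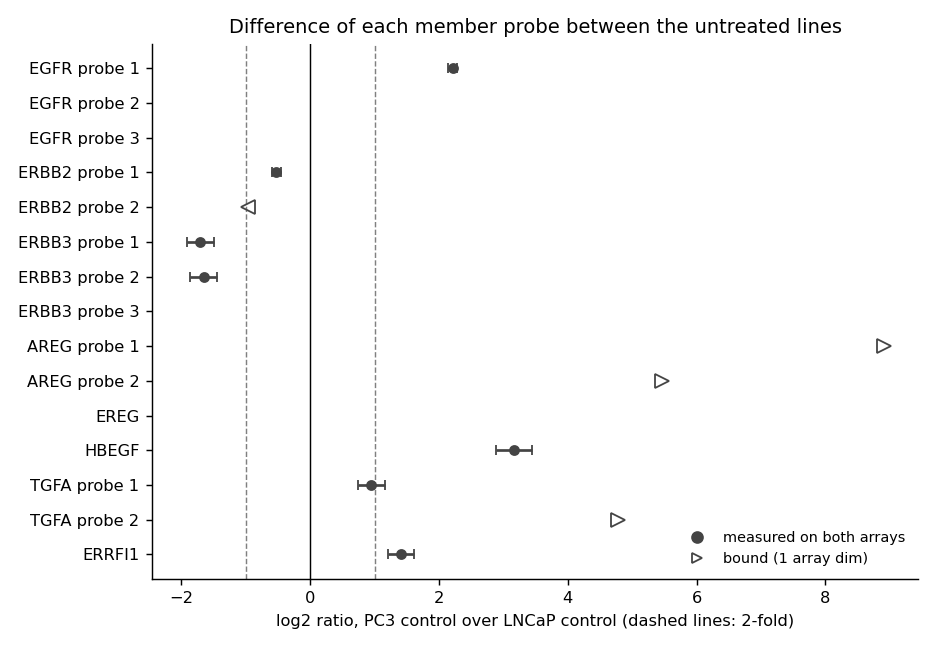
log2 ratio of PC3 control over LNCaP control for each probe, with bars for the error from the scanner software. Triangles are bounds, where the probe was well above background on 1 of the arrays, and probes without a mark had no value. AREG probe 1 reached at least 8.90, and ERBB3 probes 1 and 2 lay at -1.71 and -1.65.

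Among the ligands, AREG, amphiregulin, was measured above background in PC3 cells only. Probe 1 read 12.8 in LNCaP control and 15.7 in LNCaP ATO, neither well above background, against 15450 in PC3 control and 16705 in PC3 ATO. Probe 2 read 5.92 and 12.3 in the LNCaP arrays, again not above background, against 1415 in PC3 control and 2666 in PC3 ATO. AREG was at least 479-fold higher in PC3 control by probe 1 and at least 43.9-fold higher by probe 2. With normexp correction the value for probe 1 was 7.0 on the log2 scale in place of the bound of 8.90, and AREG had no value where both arrays had to be well above background. For such a bound, the dim array was given the lowest signal well above background there, or the probe's own signal if that was higher. Here and elsewhere, "at least" refers to that floor and to this background correction, and is no strict minimum. The sizes of these bounds are therefore not compared. HBEGF (chr5:139693236-139693295), a ligand that also binds heparin, read 57.8 (control) and 70.6 (ATO) in LNCaP cells, and 612 (control) and 409 (ATO) in PC3 cells. Both PC3 arrays were above both LNCaP arrays, of which LNCaP ATO was not well above background. HBEGF was 8.98-fold higher in PC3 control (log2 3.17 ± 0.28), and the log2 ratio was 1.95 with normexp correction and at most 3.67 over the settings tried.

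The probes of TGFA, a ligand close to EGF, gave different answers. Probe 1 read 184 (control) and 166 (ATO) in LNCaP cells, and 418 (control) and 429 (ATO) in PC3 cells. Probe 2 read 7.27 and 13.1 in the LNCaP arrays, where it was not well above background, and 882 and 864 in PC3 control and PC3 ATO. Both probes were higher in PC3, by 1.93-fold with probe 1 (log2 0.95 ± 0.21) and by at least 27.4-fold with probe 2, so that the first missed the 2-fold threshold and the second passed it. EREG, epiregulin (chr4:75472873-75472932), read 5.56 (control) and 11.1 (ATO) in LNCaP cells, and 31.5 (control) and 31.1 (ATO) in PC3 cells, none well above background. ERRFI1, the inhibitor, read 1067 (control) and 1411 (ATO) in LNCaP cells, and 3343 (control) and 6625 (ATO) in PC3 cells. Its signal was highest in PC3 ATO, and ERRFI1 was 2.66-fold higher in PC3 control than in LNCaP control (log2 1.41 ± 0.20).

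The response to ATO was then asked in PC3 cells, at 1.5-fold. ERRFI1 rose 2.05-fold, and no other gene of the set passed, so that 1 of 7 genes with a value was called (14.3%). Of all 13815 genes with a value, 18.5% changed by as much, 8.3% higher and 10.2% lower, so the share of members called was not above that of all genes. The median log2 ratio was 0.16 over the members and -0.0022 over all genes. In RNA from whole cultures, fewer cells of a type and less RNA per cell cannot be told apart. The 50th percentile moved the median of all genes in PC3 by 0.18, and the split of 1147 genes higher and 1406 lower became 2104 and 922 with it, and 830 and 1800 with the spike-in probes.

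The log2 ratio of ERRFI1 in PC3 was 1.04 ± 0.20. It lay between 0.95 and 1.23 over 13 settings of the processing and passed 1.5-fold in each of them. Some of these settings could not change it, since ERRFI1 had 1 probe with 1 spot per array. The filters on dim and bright-background spots, the median over probes and outlier spots kept all returned the main value. Only the other scalings, normexp and the deposited ratios could move it. Its spots in PC3 control and PC3 ATO lay in local backgrounds of 79.5 and 86, under the limit of 137 above which a background was taken as bright.

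EGFR was 1.45-fold lower in PC3 ATO (log2 -0.54 ± 0.07), close to but under the threshold. The 10 spots of PC3 control read 343 to 656 and those of PC3 ATO 281 to 396, so the spots of the arrays overlapped. The PC3 ATO spot was the higher in 8 of 100 pairs of spots after scaling, and the standard error from the spots was 0.09. Both figures set every spot against every other and leave out that the spots lie in the same rows on each array. Row by row, all 10 PC3 ATO spots were lower than PC3 control, also after scaling. The lowest spots of both arrays, 281 and 343, shared a row. HBEGF was 1.44-fold lower (log2 -0.53 ± 0.21). With the spike-in probes as the scale, EGFR (-0.63) and HBEGF (-0.62) passed the threshold as lower, and with the 50th percentile they stood at -0.35 and -0.34.

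ERBB2 was 1.30-fold higher in PC3 ATO by probe 1 (log2 0.38 ± 0.07), with the PC3 ATO spot higher in 100 of 100 pairs. The spots differed without overlap after scaling, but the fold was under the threshold. Leaving out the spots in bright local backgrounds gave 0.40. ERBB3 was 1.49-fold higher by probe 1 (log2 0.57 ± 0.21) and 1.29-fold higher by probe 2 (log2 0.37 ± 0.22). Probe 1 of ERBB3 passed 1.5-fold with the 50th percentile (0.76), with cyclic loess (0.60) and with normexp background correction (0.63).

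**Figure D3:**
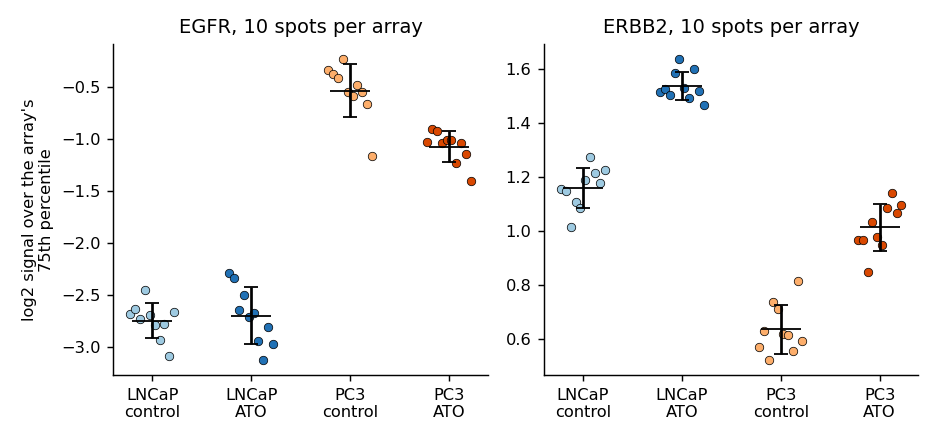
log2 signal over the 75th percentile of the array for the 10 spots of EGFR probe 1 and of ERBB2 probe 1 on each array. Points are spots, horizontal marks are means and bars are SD over the 10 spots of 1 array, which are technical copies. ERBB2 spots were higher with ATO in both lines in 100 of 100 pairs, and EGFR spots of PC3 ATO were higher than those of PC3 control in 8 of 100. Compared within the same row of the array, all 10 EGFR spots of PC3 ATO were lower than those of PC3 control.

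The ligands in PC3 depended on the probe for AREG but not for TGFA. AREG probe 1 gave a log2 ratio of 0.16 ± 0.20 and did not pass. AREG probe 2, whose sequence is given above, rose 1.95-fold (log2 0.97 ± 0.20), although both probes list the same RefSeq transcript. TGFA gave 0.09 ± 0.21 with probe 1 and 0.02 ± 0.21 with probe 2, both smaller than their errors. The sequence of AREG probe 1 shared a run of 15 bases with 1 probe of another gene, and AREG probe 2 shared no run of that length (0 probes). The part of such shared runs in the difference between the AREG probes was not tested.

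In LNCaP cells, 0 of 6 genes with a value passed 1.5-fold, where 4.77% of all 13739 genes did, 2.79% higher. The median log2 ratio was 0.05 over the members and 0.00 over all genes. ERBB2 had the largest ratio, 1.30-fold higher in LNCaP ATO (log2 0.38 ± 0.07), and its spots were higher with ATO in 100 of 100 pairs. It was 0.38 too when the spots in bright local backgrounds were left out. These values are from probe 1, and the median over probes gave -0.04 for ERBB2 in LNCaP. EGFR stood at 0.05 ± 0.09, with the LNCaP ATO spot higher in 53 of 100 pairs, so its spots were mixed. ERRFI1 was 1.24-fold higher (log2 0.31 ± 0.21). ERBB3 gave 0.06 ± 0.20 with probe 1 and -0.07 ± 0.21 with probe 2, and TGFA gave -0.24 ± 0.23 with probe 1. HBEGF was well above background in LNCaP control only and its bound gave no fold. AREG and EREG were not well above background on either LNCaP array.

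**Figure D4:**
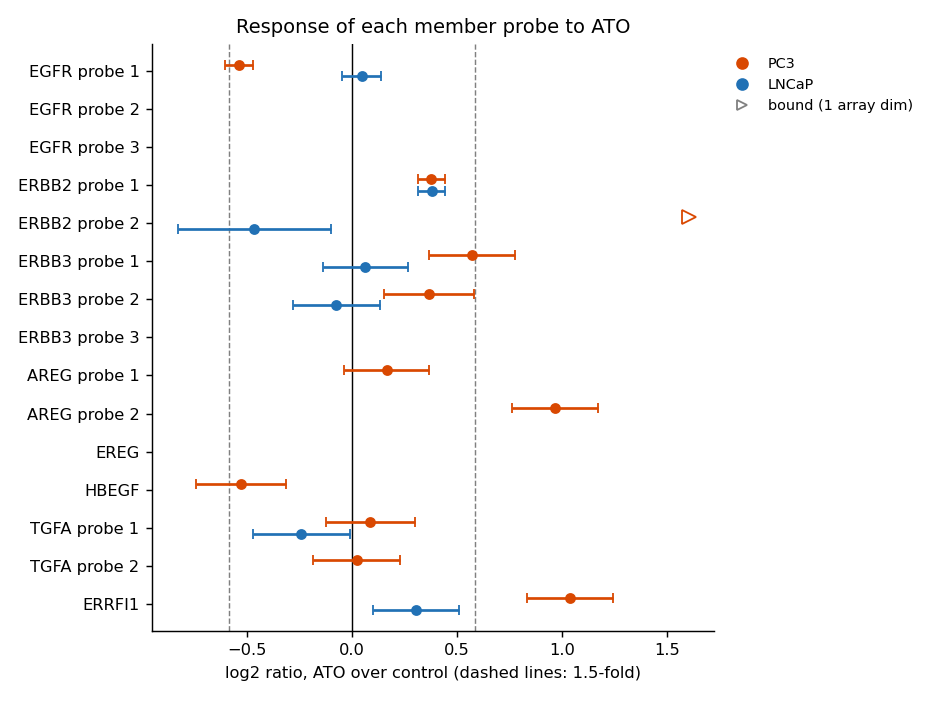
log2 ratio of ATO over control for each probe in PC3 (orange) and LNCaP (blue), with bars for the error from the scanner software. The open triangle is a bound and probes without a mark had no value or no fold. ERRFI1 (1.04) and AREG probe 2 (0.97) passed 1.5-fold in PC3 with measured values, and ERBB2 probe 1 stood at 0.38 in both lines.

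Set side by side, the response of ERBB2 probe 1 was 0.38 in both lines, and that of EGFR was -0.54 in PC3 and 0.05 in LNCaP. ERRFI1 responded by 1.04 in PC3 and by 0.31 in LNCaP. Whether any response differed between the lines was not tested, since 1 array per group leaves no spread for it. The treatment was tested over both lines with limma, with the cell line as a covariate and 1 residual degree of freedom. Of 6 members and of 11902 genes in all, 0 passed an adjusted p of 0.05 (0.0% of genes), and 525 genes had an unadjusted p under 0.05. The mean log2 effect was 0.67 for ERRFI1 (SE 0.23, limma adjusted p = 0.759). It was 0.38 for ERBB2 by probe 1 (SE 0.13, limma adjusted p = 0.759). By these probes both were higher with ATO in 2 of 2 lines. The unadjusted limma p was 0.048 for ERBB2 and 0.052 for ERRFI1, and which of them was under 0.05 changed with the setting.

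The genes whose level followed EGFR most closely over the 4 arrays were ABT1, CLOCK and FSTL3. Their root mean square differences from EGFR, on log2 levels centred over the arrays, were 0.03, 0.06 and 0.07 among 11015 genes compared. For ERRFI1 the nearest were C20orf194 (0.06), RIMKLA (0.07) and PRKCA (0.09). With 4 arrays many genes can lie this close, and the likeness is a description.

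The rest of the pathway was read from a list of 46 genes, all on the array. In PC3, 7 of 37 genes with a value passed 1.5-fold (18.9%, against 18.5% of all genes), 4 higher and 3 lower, and their median log2 ratio was 0.11. In LNCaP, 1 of 37 passed (2.70%, against 4.77%), with a median of 0.11. Between the untreated lines 25 of 40 differed by 2-fold (62.5%), 17 higher in PC3 and 8 higher in LNCaP. Of all genes 39.6% differed, 20.7% and 18.9%. Some of the 25 were well above background only in the line with the higher signal. With both arrays required above background, 3 of 9 adaptors and effectors were higher in PC3 and 2 lower. The other ligands and ERBB4 went from 2 of 4 higher in PC3 to 0 of 1. Genes of ligand shedding stayed at 2 higher and 1 lower of 4. Inhibitors and turnover genes stayed at 9 and 2 of 19, against 31.9% of all genes differing. With the 50th percentile, 4 and 5 of the adaptors became 3 and 6. The inhibitors went from 9 and 2 to 6 and 2. With the spike-in probes these were 6 and 5, and 9 and 2. In PC3 the split of 4 higher and 3 lower became 7 and 2 with the 50th percentile and 4 and 5 with the spike-in probes.

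By role, 3 of 10 adaptors and effectors with a value rose in PC3 and 0 fell, where 8.3% and 10.2% of all genes did, and with the spike-in probes 3 rose and 1 fell. SOS2, an exchange factor that activates RAS, rose from 177 to 319 (log2 0.90). PIK3CB, a catalytic subunit of PI3-kinase, rose from 128 to 226 (log2 0.87), and GAB2, a docking protein, rose from 536 to 888 (log2 0.78). These 3 had log2 ratios of 0.17 and -0.03 in LNCaP for SOS2 and PIK3CB, and no value for GAB2, which was not well above background there.

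Among the 19 inhibitors and genes of sorting and turnover, 0 rose and 3 fell in PC3 (15.8%, against 18.5% of all genes), and with the 50th percentile 2 rose and 2 fell. LRIG1, a membrane protein that promotes the loss of ERBB receptors, fell from 174 to 86.5 (log2 -0.96) in PC3 and stood at -0.03 in LNCaP. Its signal was 2052 in LNCaP control, and LRIG1 was 13.9-fold higher there than in PC3 control. LRIG3, of the same family, fell from 137 to 73.0 (log2 -0.86), and EPN1, an endocytosis adaptor, fell from 26657 to 16986 (log2 -0.60). None of these 3 falls passed with normexp correction, where 0 genes of the list were lower, and that of EPN1 did not pass with the 50th percentile.

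Of the other ligands, NRG4, named here after its values were seen, rose in PC3 by at least 1.87-fold from a signal that was not well above background in PC3 control. EGF stood at -0.07 in PC3 and 0.25 in LNCaP. BTC, betacellulin, was 0.18 in PC3 and at least 5.39-fold higher in PC3 control than in LNCaP control, where it was not well above background. NRG1 and the receptor ERBB4, which binds it, were not well above background on any array. Of the 4 genes of ligand shedding, 0 passed in either line. ADAM17, the main sheddase of AREG and TGFA, gave 0.15 in PC3 and 0.47 in LNCaP, where it passed as higher with the spike-in probes. The LNCaP ATO spot of ADAM17 lay in a bright local background of 280.5, and its part in that ratio was not tested. The 1 gene called in LNCaP was SOS1, an exchange factor like SOS2, which rose from 40.7 to 74.1 (log2 0.77). The other SOS1 probe gave a bound of -0.02.

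**Figure D5:**
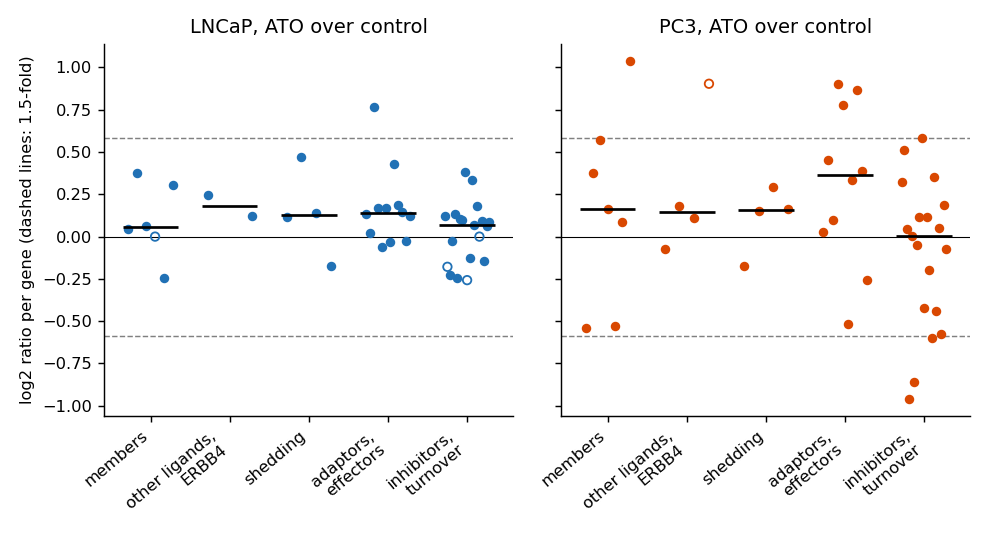
log2 ratio of ATO over control per gene in LNCaP and PC3, for the members and for the 46 other pathway genes by role. Points are genes, open points are bounds, horizontal lines are medians and dashed lines mark 1.5-fold. In PC3, 3 adaptors and effectors lay above the upper line and 3 genes of inhibition and turnover below the lower one, a split of the latter that became 2 above and 2 below with the 50th percentile.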

How the data were processed

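The authors obtained the spot intensity of each array with Agilent Feature Extraction 9.5.3.1 (hg18 probe design). Per the file headers, this processed intensity is net of a background fitted over the slide, is detrended and is a surrogate where not above background. The deposited value table gives a ratio for each probe. Set against the scanner files, between 99.2% and 99.9% of its values above 1 lay within 2.0% of the processed signal over the 75th percentile of probes. It has a floor of 0.03 and was an alternative only. GeneSpring, which the methods name, was not rerun.

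From the files, log2 processed signals were averaged over the spots of a probe without outlier spots, and log2 of the 75th percentile of the gene spots was subtracted. A probe counted as well above background if over 50% of its spots did. A gene was its brightest probe by the mean log2 signal over the arrays, which left 27224 genes. Genes well above background on 1 or both arrays were compared, at 1.5-fold for ATO and 2-fold between controls. No test within a line was possible with 1 array per group. The treatment was tested with limma 3.58.1 in R 4.3.3 (Benjamini-Hochberg, two-sided), on genes well above background on both control or both ATO arrays. Scripts were tested on simulated data. Tables and figures were made with Python 3.11.15.

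Alternatives were other scalings (50th percentile, quantile, spike-in probes, cyclic loess), normexp with an offset of 50, filters on dim and bright-background spots, the median over probes, outlier spots kept, the deposited ratios and higher thresholds (2-fold for ATO, 4-fold for controls). A 75th percentile over probes was chosen after seeing the data. The members, the pathway list and the thresholds were chosen with earlier results of these data known. From the pathway list were named those past 1.5-fold and well above background on both arrays of a line, and ERBB4, EGF, BTC, NRG1, ADAM17 and LRIG1 whatever their values. The nearest 3 genes to EGFR and to the member with the largest ratio in PC3 were also named. Precision is limited by the number of arrays.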

Additional observations from a re-analysis of the deposited data

Results flagged for a closer look

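ERBB2 probe 2 (chr17:35098847-35098906), which the array design describes by a transcript of its own and which did not stand for the gene, was well above background in PC3 ATO but not in PC3 control. Its signal was 86.2 (control) and 66.7 (ATO) in LNCaP cells, and 16.5 (control) and 153 (ATO) in PC3 cells, and the bound of its log2 ratio in PC3 was 1.61, at least 3.04-fold higher with ATO. In LNCaP it gave -0.47 ± 0.36. The PC3 ATO spot lay in a local background of 287, against 84.5 in PC3 control and a limit of 137 for a bright background, and the part of that background in the ratio was not tested. This probe lies 39508 bases from probe 1, which gave 0.38 in PC3.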

How the results depend on the processing

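The count of members called in PC3 was 1, and it became 2 with the 50th percentile, with cyclic loess and with normexp (ERBB3 added, higher), 2 with the median over probes (ERBB2 added, through probe 2) and 3 with the spike-in probes (EGFR and HBEGF added, lower). ERRFI1 was called in every setting, although the filters, the median over probes and outlier spots kept could not change its value. In LNCaP the count was 0, and it became 1 without a filter on dim probes (EREG, not well above background), where 42.9% of all genes passed. Between controls it was 5, and 3 at the higher threshold, 4 where both arrays had to be above background (AREG lost) and 6 with the spike-in probes, with cyclic loess, with the median over probes (TGFA added) and without a filter (EREG added). For the other pathway genes in PC3, 7 (4 higher, 3 lower) became 4 with normexp, 0 at the higher threshold, and 9 with the 50th percentile (7 and 2), the spike-in probes (4 and 5) and quantile scaling (5 and 4). Of all genes in PC3, 12.3% passed with normexp, 6.08% at the higher threshold and 19.0% to 21.9% with the other scalings. In LNCaP, 1 became 2 with the spike-in probes (ADAM17 added, higher), 8 without a filter, and 0 with normexp, with the median over probes and at the higher threshold. Without a filter 42.9% of all genes passed in LNCaP, 10396 higher and 1296 lower, against 4.77% in the main setting. The rise to 8 is thus no trait of the pathway. With the spike-in probes 5.76% of all genes passed, and with normexp 2.60%. The causes were not tested. The counts in LNCaP shared a further limit, since the spike-in probes moved the median of all its genes by 0.15 and its split of 384 higher and 271 lower to 611 and 181. Between controls the split of 3155 higher in PC3 and 2880 higher in LNCaP became 2196 and 4950 with the 50th percentile and 4631 and 1508 with the spike-in probes. Of 238 log2 ratios of members recomputed over 12 settings, 206 moved by less than their error and 32 by more, and 4 differed in sign, none of them past a threshold. Part of the 206 could not move, such as all those with outlier spots kept, since no member spot was an outlier. Most values under the filters were also unchanged, so the count is no measure of stability. limma called 0 members in all 7 alternatives, and 2 of all genes with the spike-in probes. A slide or scan block was not run, since there was 1 slide and 1 scan. Signals near background limit EREG, EGFR probes 2 and 3, ERBB3 probe 3 and AREG in LNCaP.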

Other observations

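STAT3 and EPGN, named after their values were seen, differed between the untreated lines as bounds. Each was well above background only in the line with the higher signal, and had no value where both arrays had to be. STAT3, a transcription factor downstream of the receptors, read 1089 in LNCaP control and 1146 in LNCaP ATO, and 14.0 and 14.7 in PC3 control and PC3 ATO, where it was not well above background. STAT3 was at least 24.7-fold higher in LNCaP control than in PC3 control, and its second probe had a bound of -2.57 on the log2 scale in the same direction. The first probe lay in a local background of 140 in LNCaP control, over the limit of 137. STAT3 had no value between the lines where bright local backgrounds were left out, and the part of that background was not tested. EPGN, epigen, a ligand of EGFR, read 819 in PC3 control and 853 in PC3 ATO, and 5.73 and 11.1 in the LNCaP arrays, where it was not well above background. EPGN was at least 25.4-fold higher in PC3 control.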
